A study of Mus musculus with 6 samples.

Results

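The Egr genes Egr1, Egr2 and Egr3, the Nr4a genes Nr4a1, Nr4a2 and Nr4a3 and the co-repressor genes Nab1 and Nab2 were followed in sorted leukemia cells from cytarabine-treated and control mice. These 8 genes, of 23284 in the deposited tables, were selected by symbol after the difference between the groups had been seen for some of them in these same libraries, so their differences are given as a description and were not tested. C1498 is a mouse leukemia line, labelled as acute myeloid. A single GFP-expressing clone of it had been injected into a vein of C57BL/6 J mice, which were adult females by the general methods. On day 21, cells positive for GFP and for CD49b were sorted from the marrow of femur, tibia and pelvis, and each mouse gave 1 library. The 3 cytarabine mice had received high-dose cytarabine, a nucleoside analog that blocks DNA synthesis, on a schedule that is not stated separately for the sequenced mice. The 3 control mice carried the leukemia too, and their labels speak of PBS in some fields and of no treatment in others.

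Egr proteins are zinc-finger transcription factors and Nr4a proteins are nuclear receptors that act without a known natural ligand. Genes of both families are switched on within minutes to hours of a signal that raises calcium or activates the ERK kinases, without new protein synthesis, and in lymphocytes they are standard readouts of antigen receptor signalling. Nab1 and Nab2 bind the Egr proteins and repress their activity, and Nab2 is itself an Egr target, which closes a feedback loop. Serum response factor (SRF), the transcription factor that the study was concerned with, controls Egr promoters through the CArG box.

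Promoter sequences show which of these motifs stand close to the start of each gene. The RefSeq-based table for GRCm38.p6 held 10 windows for 6 of the 8 members, each reaching from 250 bases before a transcript start to 50 bases from it onward. Egr1 and Egr3 had no entry. The windows shown are those of Egr2, the Egr gene that could be shown, of the 3 Nr4a genes, and of Nab1. Capitals mark 3 motifs, searched on both strands: the CArG box, the core of the cAMP response element (TGACG), and the Egr site (GCGNGGGCG). No window of a member held the full cAMP response element (TGACGTCA) or the Nr4a site (AAAGGTCA).
Egr2, chr10:67537619-67537918, + strand: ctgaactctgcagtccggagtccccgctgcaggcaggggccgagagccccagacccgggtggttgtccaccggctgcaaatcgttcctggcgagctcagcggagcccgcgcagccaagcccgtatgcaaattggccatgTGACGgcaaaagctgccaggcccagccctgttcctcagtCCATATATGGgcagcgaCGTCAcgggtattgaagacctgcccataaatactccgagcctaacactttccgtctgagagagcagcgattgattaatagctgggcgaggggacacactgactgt
Nr4a1, chr15:101266596-101266895, + strand: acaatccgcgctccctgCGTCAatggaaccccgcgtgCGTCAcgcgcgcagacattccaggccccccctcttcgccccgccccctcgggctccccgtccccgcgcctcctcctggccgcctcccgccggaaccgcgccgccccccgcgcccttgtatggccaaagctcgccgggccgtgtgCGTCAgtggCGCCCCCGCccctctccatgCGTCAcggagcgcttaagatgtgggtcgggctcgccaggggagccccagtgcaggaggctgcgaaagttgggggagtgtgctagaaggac
Nr4a2, chr2:57123954-57124253, - strand: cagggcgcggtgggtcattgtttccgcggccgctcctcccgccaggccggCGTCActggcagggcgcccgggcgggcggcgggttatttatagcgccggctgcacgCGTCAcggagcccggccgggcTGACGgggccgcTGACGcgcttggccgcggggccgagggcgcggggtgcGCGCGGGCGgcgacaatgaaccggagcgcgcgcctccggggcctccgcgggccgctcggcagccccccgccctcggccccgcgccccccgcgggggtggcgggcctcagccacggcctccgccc
Nr4a3, chr4:48045055-48045354, + strand: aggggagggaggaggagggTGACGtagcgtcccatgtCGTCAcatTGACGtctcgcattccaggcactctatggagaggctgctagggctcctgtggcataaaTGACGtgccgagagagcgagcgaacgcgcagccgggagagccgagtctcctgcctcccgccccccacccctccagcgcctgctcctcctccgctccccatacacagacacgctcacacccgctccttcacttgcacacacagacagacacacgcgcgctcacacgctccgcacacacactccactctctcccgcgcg
Nab1, chr1:52500399-52500698, - strand: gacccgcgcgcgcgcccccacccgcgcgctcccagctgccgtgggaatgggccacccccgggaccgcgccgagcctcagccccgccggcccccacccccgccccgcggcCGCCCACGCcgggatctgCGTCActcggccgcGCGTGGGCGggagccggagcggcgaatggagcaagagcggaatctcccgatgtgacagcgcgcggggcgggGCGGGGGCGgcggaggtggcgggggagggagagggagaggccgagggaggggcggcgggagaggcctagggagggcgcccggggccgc
A CArG box stood in the Egr2 window, from 72 to 63 bases before the start, between matches to the cAMP core at 111 to 107 and at 55 to 51 bases before it. Of the 5 Egr2 windows, 4 held a CArG box, and 3 of these overlap and share it. None of the windows of the Nr4a and Nab genes held one, and 1.63% of all 32851 windows did. The Nr4a windows instead held 4 matches each to the cAMP core, which 20.8% of all windows held at least once. The Egr site was present once in Nr4a1, from 60 to 52 bases before the start, once in Nr4a2, from 74 to 66, and at 3 places in Nab1, at 141 to 133, 109 to 101 and 38 to 30, against 5.55% of all windows with at least 1 match. The Nab2 window held none of the motifs searched. Distances are from the RefSeq start of each window. For Nr4a3, Nab1 and Nab2, the annotation used for gene positions has no coding transcript start within 5 bases of it. By that annotation the 3 Nab1 matches to the Egr site lie inside the gene. A match is a run of letters and not a measured binding site.

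The libraries were checked before the members were read. Their inferred depth was between 11500000 and 18800000 reads. The 6 genes fixed as marks of the sorted line, among them the sort antigen gene Itga2 and the T cell receptor signalling genes Cd3e and Lck, summed to between 1055 and 1347 FPKM with cytarabine and between 1167 and 1434 FPKM in controls. The markers were mixed for a line labelled myeloid: Cd3e was between 129.6 and 199.3 FPKM, but Cd4, Cd5, Cd8a, Cd8b1 and Cd247, also of T cells, were under 1 FPKM, and of the monocyte genes Cx3cr1 was between 38.7 and 67.0 FPKM and Csf1r between 0.912 and 5.81 FPKM. Itga2 itself was at 7.79 to 8.11 FPKM with cytarabine and at 10.6 to 13.3 FPKM in controls. FPKM is a fragment count divided by transcript length and by library size, so levels can be compared between genes. The libraries did not divide cleanly by treatment. Colon epithelium markers summed to 2262 and 2618 FPKM in cytarabine 2 and 3 and to 1223 FPKM in control 1, but to 180.2 FPKM in cytarabine 1 and to 15.6 and 17.3 FPKM in control 2 and 3. Comparisons were therefore also read within each side of that division. Of the 11703 genes that averaged 1 FPKM or more, 0 (0%) passed an adjusted p under 0.05 with limma, and the smallest adjusted p was 0.0551. At the unadjusted threshold, 890 (7.6%) were higher and 1148 (9.81%) lower with cytarabine at an unadjusted p under 0.05. The p-values set the difference between the groups against the spread between these libraries, which includes their differences in transcript of other tissues. The 2038 genes became 4075 without cytarabine 1, 1278 without cytarabine 2, 1252 without cytarabine 3, 1260 without control 2 and 1179 without control 3.

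For each Egr gene the lowest treated library was above the highest control, while the groups overlapped for each Nr4a and Nab gene. The groups did not overlap for 3 of the 8 members, all of them higher with cytarabine. Over all genes tested, 10.9% were above all controls and 12.9% below all controls in the same way, and nothing is read from the members' share, since it was known when they were chosen. Of the 8 members, 7 passed the filter of a mean of 1 FPKM, and Nr4a3 did not. In controls the mean levels, from high to low, took the order Nab1, Egr1, Nr4a1, Nr4a2, Nab2, Egr3, Egr2 and Nr4a3. The ranges of Egr1 and Nr4a1, of Nr4a2 and Nab2, and of Egr3 and Egr2 overlapped there. With cytarabine Egr1 moved above Nab1 to the top, and the order of the others was kept.

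**Figure D1:**
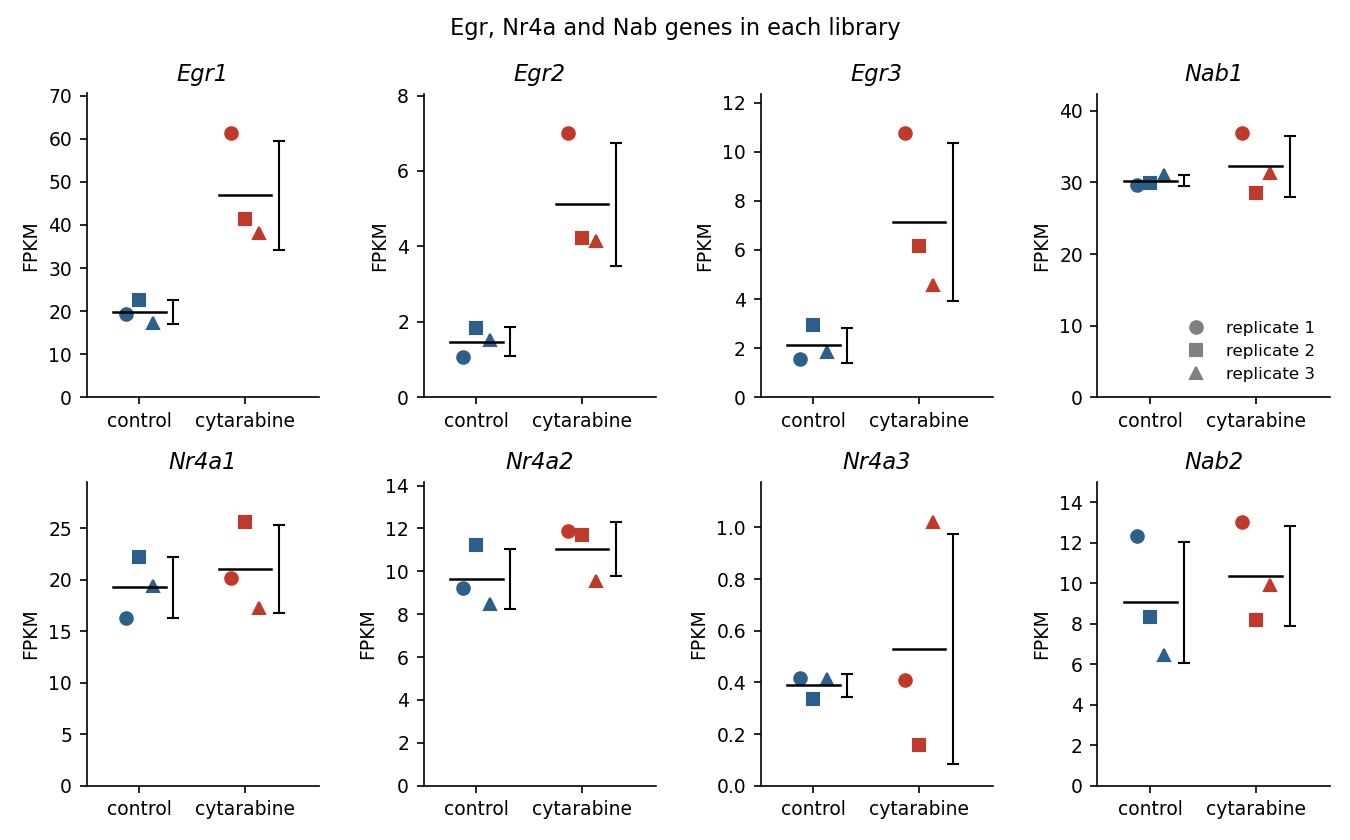
FPKM of each member in the 3 control (blue) and 3 cytarabine (red) libraries, with the group mean as a line, the SD (n = 3) as a bar beside it and marker shapes for replicates 1 to 3. The cytarabine points lie above all control points for Egr1, Egr2 and Egr3, and the groups overlap in the other 5 panels.

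Egr1, the most abundant Egr gene, lies on chromosome 18 from 34859823 to 34864984 of GRCm38. Cytarabine libraries 1 to 3 held 61.3, 41.3 and 38.0 FPKM of it, and control libraries 1 to 3 held 19.4, 22.7 and 17.2 FPKM. All 3 treated mice were thus above the highest control, the lowest of them by 1.68 times. The means were 46.9 ± 12.6 FPKM (SD, n = 3) and 19.8 ± 2.75 FPKM (SD, n = 3), a ratio of 2.37. On the log2(FPKM + 1) scale the difference was 1.18 with a standard error of 0.24. It ranked 534th among the differences of the 11703 genes tested, from the highest down. That rank is a description only, since the members were chosen with some of their differences known.

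Egr2, on chromosome 10 from 67535475 to 67542188, is the family member best known from myelinating cells and from restraint of T cell responses. Its levels were 7.00, 4.22 and 4.14 FPKM in cytarabine libraries 1 to 3 but 1.07, 1.84 and 1.50 FPKM in control libraries 1 to 3. Here the lowest treated library exceeded the highest control 2.25 times, the widest gap of the 8 genes. The ratio of the means, 5.12 ± 1.63 FPKM (SD, n = 3) to 1.47 ± 0.39 FPKM (SD, n = 3), was 3.49. The log2(FPKM + 1) difference was 1.29 with a standard error of 0.25, a scale that understates changes at such low FPKM. With the inferred depth and the longest coding transcript, these levels correspond to about 42 to 63 reads in the controls and about 152 to 253 reads with cytarabine.

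Egr3, on chromosome 14 from 70077203 to 70082614, acts beside Egr2 in lymphocytes. It was measured at 10.8, 6.14 and 4.57 FPKM in cytarabine libraries 1 to 3, and 1.56, 2.93 and 1.86 FPKM were found in control libraries 1 to 3. The treated libraries were again all higher, although cytarabine 3 was only 1.56 times control 2. The means of 7.16 ± 3.22 FPKM (SD, n = 3) and 2.12 ± 0.72 FPKM (SD, n = 3) gave a ratio of 3.38, and the log2(FPKM + 1) difference was 1.34 with a standard error of 0.37. Egr4, the remaining gene of the family and not a member, was listed at 0 in all 6 libraries, where 3 reads on its transcript would give between 0.082 and 0.134 FPKM.

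The Egr genes also ordered the mice of each group much alike. In both groups the same library was highest for all of Egr1, Egr2 and Egr3: cytarabine 1 among the treated and control 2 among the controls. Among the treated, cytarabine 2 came second and cytarabine 3 last for each of them. The ratio of Egr3 to Egr2 stayed between 1.10 and 1.59 over the 6 libraries. The ratio of Egr1 to Egr2 was 8.76, 9.79 and 9.20 in cytarabine libraries 1 to 3 and 18.2, 12.3 and 11.4 in control libraries 1 to 3. The groups did not overlap in this ratio, which was lower in the treated mice and was not tested.

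**Figure D2:**
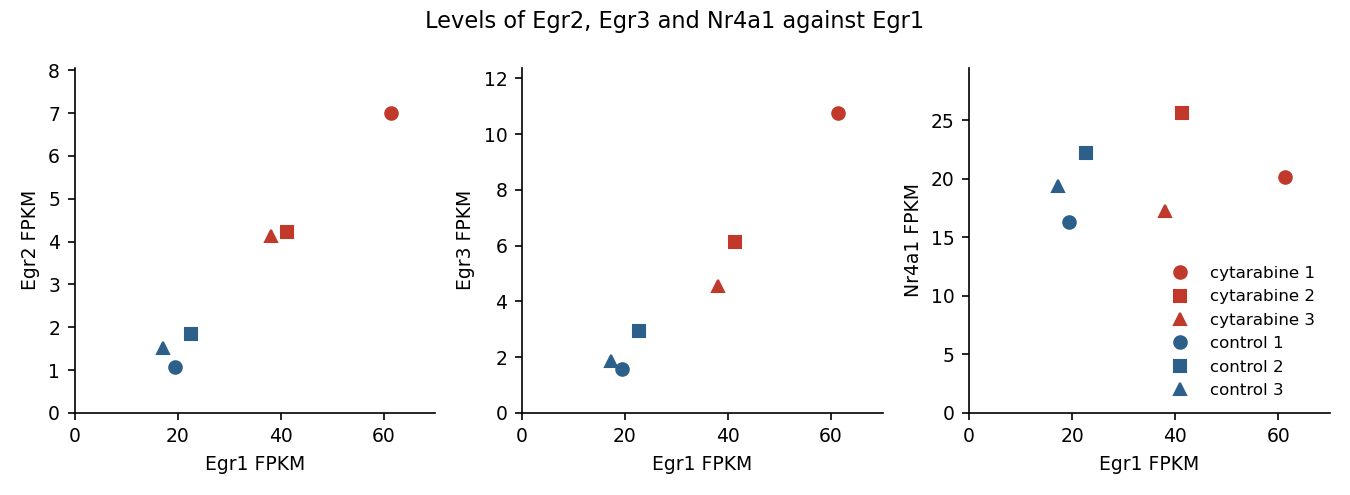
FPKM of Egr2, Egr3 and Nr4a1 (vertical axes) against FPKM of Egr1 (horizontal axes), 1 point for each of the 6 libraries, coloured by group with marker shapes for replicates. Egr2 and Egr3 are lowest in the controls and highest in cytarabine 1 as Egr1 is, whereas Nr4a1 stays between 16.3 and 25.6 FPKM in both groups.

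Within the sides of the colon division the Egr differences kept their direction. This was given in advance, since every treated library was above every control, so only the sizes are read. Among the libraries with much colon transcript, cytarabine 2 and 3 averaged 2.04 times the Egr1, 3.92 times the Egr2 and 3.43 times the Egr3 of control 1. Among those with little, cytarabine 1 held 3.08, 4.19 and 4.50 times the mean of control 2 and 3 for the same genes. Each side has a single library in 1 of the groups, and the libraries of a side are not matched. Colon markers summed to 180.2 FPKM in cytarabine 1 but to 15.6 and 17.3 FPKM in control 2 and 3. Heart muscle markers summed to 19.2 and 643.6 FPKM in cytarabine 2 and 3 and to 2359 FPKM in control 1. Leaving out any 1 library kept the log2(FPKM + 1) difference between 0.98 and 1.31 for Egr1, between 1.08 and 1.40 for Egr2 and between 1.04 and 1.58 for Egr3. The lower bound of each came without cytarabine 1.

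Of the co-repressors, Nab1 was nearly level across the libraries. The gene, on chromosome 1 from 52457294 to 52500679, had 36.9, 28.5 and 31.3 FPKM in cytarabine libraries 1 to 3 and 29.6, 30.0 and 31.1 FPKM in control libraries 1 to 3. The control values lay inside the treated range, and the log2(FPKM + 1) difference was 0.083 with a standard error of 0.11. Nab2, on chromosome 10 from 127660918 to 127668568, had 13.1, 8.17 and 9.92 FPKM in cytarabine libraries and 12.4, 8.36 and 6.47 FPKM in control libraries 1 to 3. Its groups overlapped, with replicate 1 highest in each, and the difference was 0.20 with a standard error of 0.30. Within the side with much colon transcript Nab2 differed by -0.42, and within the other side by 0.75, on the same log2 scale.

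The message of the activator was also set against that of the co-repressors. The Egr1 to Nab1 ratio was 1.66, 1.45 and 1.22 in cytarabine libraries 1 to 3 and 0.66, 0.76 and 0.55 in control libraries 1 to 3, so that Egr1 exceeded Nab1 in the treated mice only. The Egr1 to Nab2 ratio was 4.70, 5.05 and 3.84 with cytarabine and 1.57, 2.71 and 2.66 in controls. Neither ratio overlapped between the groups. Both rest on the Egr1 values above and are not further evidence of its difference.

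The Nr4a genes overlapped between the groups. Nr4a1, which encodes Nur77, a standard reporter of T cell receptor signalling, lies on chromosome 15 from 101254269 to 101274795. It stood at 20.1, 25.6 and 17.2 FPKM in cytarabine libraries 1 to 3, beside 16.3, 22.2 and 19.4 FPKM in control libraries 1 to 3. The highest and the lowest control bracketed cytarabine 1 and 3, and 1 of the 3 treated libraries exceeded all controls. The log2(FPKM + 1) difference was 0.11 with a standard error of 0.20, and it was -0.036 without cytarabine 2. Cytarabine 1, the library with the most Egr1, Egr2 and Egr3, was not the highest for Nr4a1.

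Nr4a2, which encodes Nurr1 and is also needed in dopamine neurons, lies on chromosome 2 from 57106830 to 57124003. Its values of 11.9, 11.7 and 9.57 FPKM in cytarabine libraries 1 to 3 and 9.20, 11.2 and 8.49 FPKM in control libraries 1 to 3 overlapped through cytarabine 3 and control 2. The difference of 0.18 on the log2 scale had a standard error of 0.14. Nr4a3, on chromosome 4 from 48045153 to 48086447, was the lowest of the members. The treated libraries gave 0.408, 0.157 and 1.02 FPKM and the controls 0.417, 0.336 and 0.413 FPKM, about 16 to 75 reads a library. The highest and the lowest of the 6 values were both from treated mice, and without cytarabine 3 the difference of 0.10 (standard error 0.24) became -0.12. In Nr4a1 and Nr4a2 a difference as large as that of Egr1 was not seen. Differences near or within their standard errors cannot be told from the spread between mice. For Nr4a3 the log2(FPKM + 1) scale understates changes at such low FPKM, so its difference cannot be set against that of Egr1.

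Other early genes and linked genes were counted from lists, drawn up with earlier results of these data known, so that the members could be seen beside their pathway. Calls are from limma at an unadjusted p under 0.05, to be read against the 7.6% of all genes called higher and 9.81% called lower, and 0 of the listed genes passed the adjusted threshold. Of 29 tested among 32 other activation-induced early genes, 8 were called higher and 1 lower, with a median log2 difference of 0.34, where the median over all genes was -0.0015. Nfkbia, the NF-kB inhibitor, had 32.2 ± 3.14 FPKM with cytarabine and 16.5 ± 2.10 FPKM in controls (SD, n = 3 each), a log2 difference of 0.93 (standard error 0.12, adjusted p = 0.132 from limma). Jund, an AP-1 subunit, differed by 0.51 and Dusp4, a phosphatase that turns off MAP kinases, by 0.42 (adjusted p = 0.132 from limma for each). The Jund call was lost with the colon and heart marker scores as covariates. Myc, the growth regulator, was the gene called lower, at -0.56 (adjusted p = 0.248 from limma), a call that was lost without cytarabine 2, cytarabine 3 or control 3. Without cytarabine 1, 14 of the early genes were called.

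**Figure D3:**
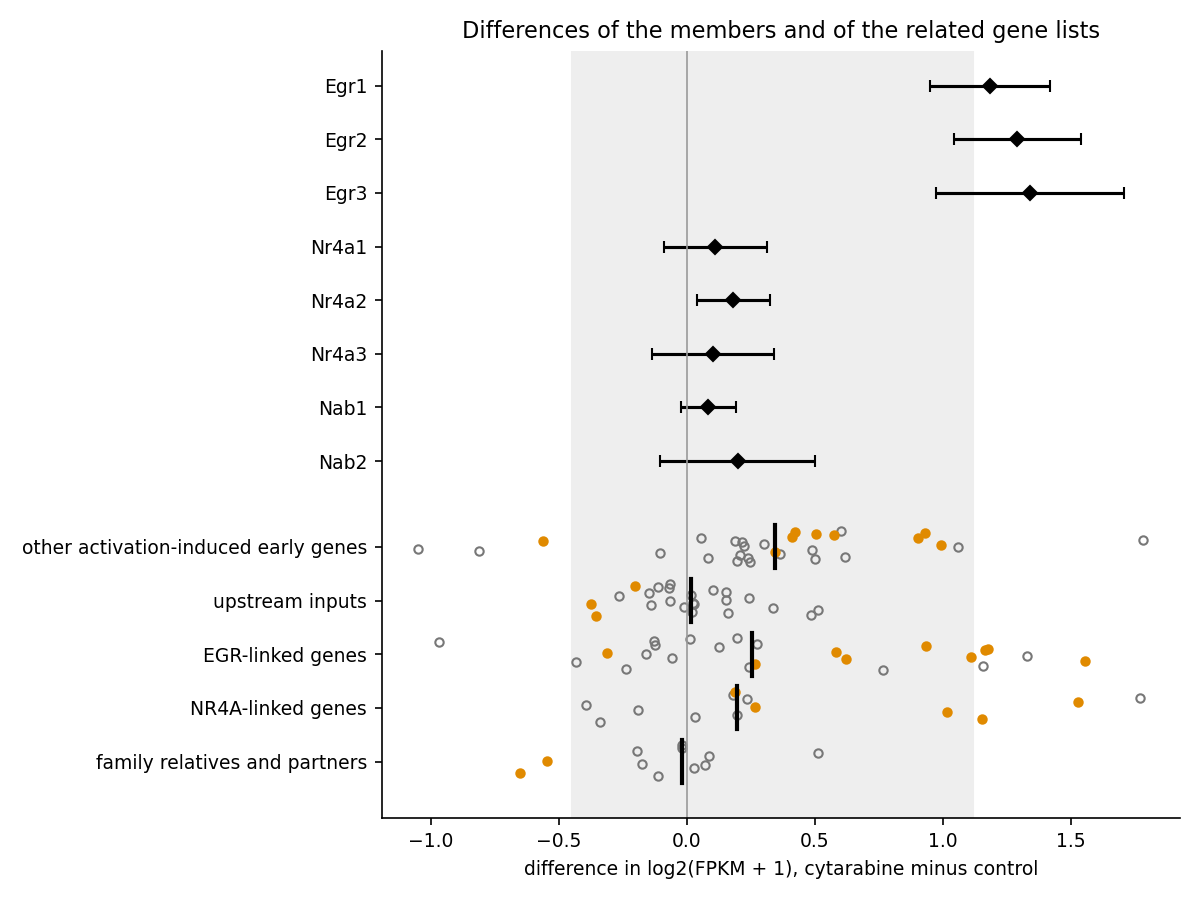
Difference in log2(FPKM + 1), cytarabine minus control, for the 8 members (diamonds, bars are standard errors, n = 3 against 3) and for the tested genes of each list (circles, filled orange at an unadjusted p under 0.05 from limma, black line at the list median). The grey band spans the 5th to the 95th percentile of all genes tested, from -0.45 to 1.12, and the 3 Egr genes lie beyond it. Nothing is read from that place, since the members were chosen with some of their differences known.

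The genes upstream of both families were called about as often as genes at large. The list held the calcineurin and NFAT genes, the ERK kinases with the ETS factors and SRF, and CREB and MEF2 factors. Of 23 tested, 0 were called higher and 3 lower, with a median difference of 0.017. With the colon and heart marker scores as covariates, 0 were called in either direction. The 3 were Ppp3cb, a catalytic subunit of calcineurin (-0.37, adjusted p = 0.137 from limma), Mef2d, a factor that binds the Nr4a1 promoter (-0.35, adjusted p = 0.166), and Map2k2, a kinase that activates ERK (-0.20, adjusted p = 0.27). Without cytarabine 1, 2 of the 23 were called higher and 4 lower. The Map2k2 call was lost without cytarabine 2, cytarabine 3, control 2 or control 3. These are mRNA levels, whereas the activity of these proteins is set mostly by phosphorylation and calcium.

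Genes linked to the Egr factors in lymphocytes or myeloid cells were called higher in 8 and lower in 1 of 24 tested, with a median difference of 0.25. Tnfrsf9, a costimulatory receptor of activated T cells, had 13.1, 7.55 and 10.4 FPKM in cytarabine libraries 1 to 3 and 1.56, 4.32 and 3.01 FPKM in control libraries 1 to 3. All treated libraries were above all controls, with a log2 difference of 1.55 (standard error 0.32, adjusted p = 0.151 from limma). Il2rb, a chain of the interleukin 2 receptor, differed by 1.16 and Socs1, a brake on cytokine signalling, by 1.18 (adjusted p = 0.154 and 0.166 from limma). Il2rb averaged 2.08 FPKM with cytarabine but 0.36 FPKM in controls, and so passed the filter only through its treated libraries. With the colon and heart scores as covariates both calls were lost, and with quantile normalization that of Il2rb. The gene called lower was Dgka, the diacylglycerol kinase that dampens T cell receptor signals, at 146 ± 23.1 FPKM against 180.5 ± 9.30 FPKM (SD, n = 3 each), a difference of -0.31 (adjusted p = 0.281 from limma). The Dgka call was lost in 5 of the 6 fits that left out a library, all but the one without cytarabine 1, and with the replicate block, with the covariates and without the trend.

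Among genes linked to the Nr4a factors, 5 of 13 tested were called higher and 0 lower, with a median difference of 0.20. A gene among the 5, at 2.27 FPKM with cytarabine and 0.47 FPKM in controls, passed the filter only through its treated libraries. With the colon and heart scores as covariates 1 was called higher and 1 lower, and with quantile normalization 2 were called higher. Il2ra, the inducible chain of the interleukin 2 receptor, was at 9.47 ± 1.60 FPKM with cytarabine and 2.83 ± 1.49 FPKM in controls (SD, n = 3 each). Its difference was 1.53 (standard error 0.32, adjusted p = 0.151 from limma). Pdcd1, the gene of an inhibitory receptor, had 41.0, 33.2 and 29.7 FPKM in cytarabine libraries 1 to 3 against 18.4, 11.5 and 20.9 FPKM in control libraries 1 to 3, a difference of 1.02 (standard error 0.24, adjusted p = 0.166 from limma). Tox, a factor of exhausted T cells, differed by 0.27 (adjusted p = 0.183 from limma). Its call was lost with the covariates and with quantile normalization, and that of Pdcd1 with the covariates. The Nr4a genes themselves overlapped between the groups in the same libraries. Without cytarabine 2, cytarabine 3, control 2 or control 3, 3 of the 13 were called higher, and without control 1, 4 were called higher and 1 lower. Family relatives and partner proteins had 0 of 11 called higher and 2 lower, Rxrb, a retinoid receptor that pairs with Nr4a proteins (-0.65, adjusted p = 0.132 from limma), and Chd3, a chromatin remodeller (-0.55, adjusted p = 0.136 from limma). Without cytarabine 1, 5 of the 11 were called.

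Likeness was read over the 6 libraries among 8798 other genes averaging 5 FPKM or more. The genes whose log2(FPKM + 1) was most like the mean of Egr1, Egr2 and Egr3 were Zfp36, Tec, Cd274, Tmco1 and Ier5, with a Pearson r between 0.988 and 0.995. Zfp36, which encodes an RNA-binding protein that destabilises cytokine messages, had 64.4, 51.2 and 52.1 FPKM in cytarabine libraries 1 to 3 and 34.8, 39.9 and 36.6 FPKM in control libraries 1 to 3. Cd274, the gene of an inhibitory ligand, had 25.2, 17.8 and 14.8 FPKM and 9.25, 10.5 and 9.30 FPKM in the same order. As for the Egr genes, cytarabine 1 was highest in the treated group and control 2 in the control group for each of them. Zfp36 and Ier5 were on the list of early genes. The mean of the 3 Nr4a genes was most like Cops4, Arpc3, Casp6 and Rbmx, with r between 0.978 and 0.986, and none of these was on a list. That mean joins genes that did not vary together. Nr4a3 correlated at -0.71 with Nr4a1 and at -0.44 with Nr4a2, whereas Nr4a1 and Nr4a2 correlated at 0.70. These r are over libraries that share a group difference and are given as a description.

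Cells other than the leukemia could have been in the sort, and their markers were read beside the Egr genes. In bulk samples fewer cells of a type and less RNA per cell cannot be told apart. Neutrophil markers, 10 of 11 found, summed to 1586 FPKM in cytarabine 1 and 204.7 and 193.9 FPKM in cytarabine 2 and 3, against 1454 to 2064 FPKM in controls. Cytarabine 1, with the most Egr1, thus had a neutrophil sum inside the range of the controls, but its single markers went both ways. Elane, Mpo and Camp were above all controls in it and S100a8 was within their range. S100a9, Ltf, Ngp, Retnlg, Mmp8 and Lcn2 were below all controls. Monocyte and macrophage markers, 9 of 10 found, summed to 94.0 to 106 FPKM with cytarabine and 90.7 to 236 FPKM in controls, and control 2 was highest both for them and for the Egr genes among controls. NK cell markers, all 5 found, summed to 4.73 to 7.12 FPKM with cytarabine and 2.68 to 4.37 FPKM in controls without overlap, most of it from Klrb1c. Cytarabine 1 was the highest treated library and control 2 the highest control for the NK sum too, while Ncr1, Eomes and Tbx21 were under 1 FPKM in every library. All 5 T cell markers, Cd4 and Cd8a among them, stayed under 1 FPKM and together reached 0.963 to 2.47 FPKM with cytarabine and 0.959 to 1.53 FPKM in controls. The part of these cells in the Egr difference was not tested.

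**Figure D4:**
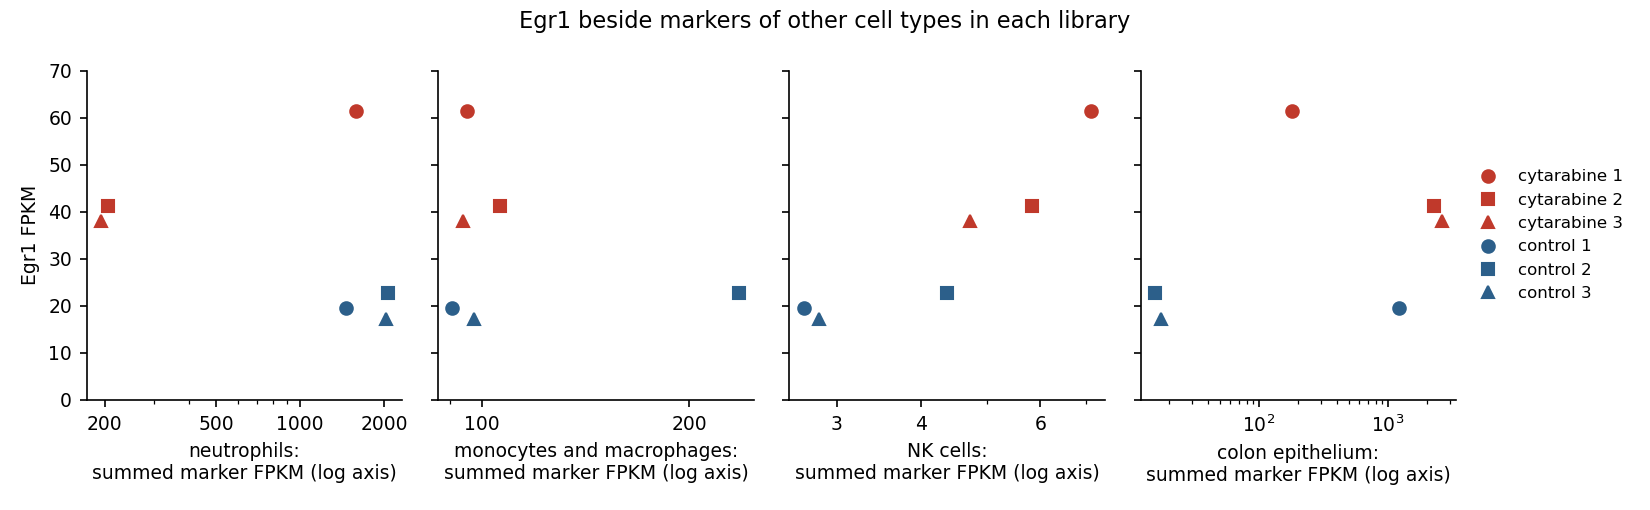
Egr1 FPKM (vertical axis) against the summed FPKM of markers of neutrophils, monocytes and macrophages, NK cells and colon epithelium (horizontal log axes), 1 point for each of the 6 libraries, coloured by group. Cytarabine 1 lies among the controls for neutrophils and between control 3 and control 1 for colon epithelium, and the groups do not overlap along the NK cell axis.

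The remaining marker lists overlapped between the groups. B cell markers summed to 6.67 to 14.8 FPKM with cytarabine and 6.16 to 7.76 FPKM in controls, dendritic cell markers to at most 1.88 FPKM, and erythroid markers to 103.7 FPKM in cytarabine 1 and to between 13.7 and 26.5 FPKM elsewhere. Endothelial and stromal markers ranged from 34.9 to 351.7 FPKM, smooth muscle markers from 20.6 to 958 FPKM and heart muscle markers from 4.74 to 2359 FPKM over the 6 libraries. Whether these transcripts came from cells in the sort was not tested, and neither was their part in the levels of the members.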

How the data were processed

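RNA was measured in C1498 cells sorted from 6 mice, 3 of them given cytarabine, each mouse giving 1 library, with group and replicate number taken from the sample records. Per the labels and methods, libraries were stranded mRNA libraries, and the authors mapped single-end reads to mm10 with TopHat2 2.0.13, Bowtie2 2.2.3 and SAMtools 0.1.19. The authors deposited 1 FPKM value per gene symbol from Cufflinks 2.2.1, already divided by transcript length and library size. The annotation and the Cufflinks options are not given in the sources used here. No counts were used.

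Values were taken as log2(FPKM + 1), and the 11703 of 23284 genes averaging 1 FPKM or more were fitted with limma 3.58.1 in R 4.3.3 (moderated with an intensity trend, two-sided, adjusted by Benjamini-Hochberg over these genes). Members were described with group means, SD and standard errors and no test. Their standard errors come from the variances of the gene's own groups. Those of the listed genes, Fos included, are the moderated ones of limma, so they are not directly comparable with those of the members. The members and the gene lists were chosen with earlier results of these data known. Genes named are the members, up to 3 in each direction with the smallest p in each list among those at an unadjusted p under 0.05, and the 5 genes most like each family mean, of which 1 is not reported here. Egr4 was added as a relative, and Fos and the early genes set beside it were added after their values were seen. Depth was inferred from the steps of low FPKM of 3457 genes with 1 transcript of at least 600 bases in GENCODE M21 (GRCm38), assuming fragments of 200 bases. Between 71.7% and 75.8% of the values used lay within 0.1 of a whole read, and reads per gene are estimates covering counting error only. Gene positions come from the same annotation, and promoters from RefSeq (GRCm38.p6). The fit and the depth step were tested on simulated data. Alternatives were another pseudocount, other filters on low values, 3 other scalings, a fit without the trend, the replicate number as a block, colon and heart marker scores as covariates, comparisons within the colon division and leaving out each library. The markers Ly6g, Hbb-bs and Muc2 were not analysed here, and Adgre1 was read under its older symbol Emr1. Plots used Python 3.11.15 and matplotlib 3.10.9.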

Additional observations from a re-analysis of the deposited data

How the results depend on the processing

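The differences of Egr1, Egr2 and Egr3 ranged from 0.98 to 1.81 on the log2 scale over the 45 values under the alternatives. All were positive, which was given in advance for the left-out libraries and the colon division, since the groups did not overlap. For every member the replicate block and the setting without a filter return the main difference by construction. Of all 120 member values, 10 moved by more than the spread between replicates and 7 had another sign, all of these in Nr4a1, Nr4a3, Nab1 or Nab2. The median difference of Nab1 and Nab2 was -0.20 within the libraries with much colon transcript and 0.51 within the others. Genes past the adjusted threshold numbered 1 with a pseudocount of 0.1, 2 without the trend and from 0 to 5 when each library was left out in turn. The 2038 genes at an unadjusted p under 0.05 became 592 with the colon and heart covariates and ranged from 1179 to 4075 when each library was left out. With these covariates 0 upstream genes, 5 Egr-linked genes (4 higher, 1 lower) and 2 Nr4a-linked genes (1 higher, 1 lower) were called. Nr4a-linked genes called were 3 when genes had to average 5 FPKM and 2 with quantile normalization. When each library was left out, the calls ranged from 6 to 14 for early genes and from 2 to 6 for upstream genes. They ranged from 6 to 12 for Egr-linked genes, from 3 to 5 for Nr4a-linked genes and from 2 to 5 for relatives and partners. The causes were not tested.

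Same-numbered libraries come from different mice, and their deviations from the group means correlated at -0.71, -0.25 and -0.59. In the fit with a replicate block, 994 genes were at an unadjusted p under 0.05 and 3 Nr4a-linked genes were called, and the other lists stayed within 1.5 times their count. The 5 genes most like each family mean were replaced, 0 of 5 shared for either family, when deviations from the group means were correlated instead. The number of mice and low FPKM limit what can be seen for Nr4a3, Egr2 and Egr3.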

Other observations

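Fos, an early gene that SRF and its ETS partners control as they do Egr1, was singled out after its values were seen. Cytarabine libraries 1 to 3 held 8.18, 17.6 and 40.7 FPKM of it, the reverse of the order of Egr1, Egr2 and Egr3 in the same libraries. The ratio of Egr1 to Fos was 7.50, 2.35 and 0.935 in these libraries, and 1.38, 1.54 and 2.26 in control libraries 1 to 3. The control ratios lay inside the treated range. The order of Fos among the treated libraries was not particular to it. Other listed early genes rose from cytarabine 1 to cytarabine 3 too, among them Jun, Atf3, Klf4, Klf6, Btg2 and Dusp1. Others fell in the order of the Egr genes, among them Junb, Dusp4 and Ier5. The Fos difference between the groups was 0.60 on the log2(FPKM + 1) scale with a standard error of 0.57. The marker sums of heart muscle, colon epithelium, smooth muscle, and endothelium and stroma each took the same order as Fos among the treated libraries, the heart sum being 4.74, 19.2 and 643.6 FPKM and the colon sum 180.2, 2262 and 2618 FPKM. Among controls all 4 were highest in control 1, where Fos was at 14.1 FPKM, against 14.7 and 7.61 FPKM in control 2 and 3. Their part in the Fos values was not tested.

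Among controls, control 1 was highest for Nab2 and lowest for Egr2 and Egr3, while among treated mice cytarabine 1 was highest for all of these genes.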
